A study of Mus musculus with 9 samples.

Results

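The SLC25 carriers are the family of membrane proteins that move nucleotides, phosphate, carboxylic acids, amino acids, cofactors and metal ions across the inner membrane of mitochondria. They were taken here as the genes whose array symbol is Slc25a followed by a number and that have a probe set assigned to that gene alone. Where a gene had several such probe sets, the one with the highest mean signal was used. This gave 46 genes out of 19938 measured genes, read by 50 probe sets. No filter on dim signals was applied, so all 46 were tested.

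The data come from cardiac muscle of the inbred mouse strain C57BL/6 at 3 ages after birth. There were 3 arrays of 24-hour-old hearts, 3 of 7-day-old hearts and 3 of 10-week-old hearts, with no treatment or altered gene named for any of them. Total RNA was read on Affymetrix Mouse Gene 1.0 ST arrays, and each value is a log2 signal, so a difference of 1 is a 2-fold difference. Whether an array holds RNA of 1 animal or of a pool is not stated. The p-values below therefore measure the spread between arrays, which may be partly technical. With 3 arrays per age, that number limits the precision.

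The inner mitochondrial membrane is closed to most charged metabolites, so each needs a protein to carry it. ADP/ATP carriers bring ADP in for ATP synthase and send ATP out to the cell. Carriers for malate, oxoglutarate, aspartate and glutamate form the shuttle that moves reducing power from the cytosol into mitochondria. The carnitine carrier brings in fatty acids, a main fuel of the adult heart. Around birth the mouse heart changes from glucose and lactate towards fatty acids as fuel, and its muscle cells stop dividing within days to weeks.

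The part of upstream sequence in the signals was not tested, and the sequences before the start sites of 4 carriers are given here for reference. These are Slc25a4 and Slc25a5, the ADP/ATP carrier genes whose signals moved apart with age, and Slc25a34 and Slc25a38, which were more than 2-fold higher at 10 weeks than at 24 hours. Each is the 250 bases before the start listed by RefSeq in the mouse build GRCm38.p6, printed in the direction of transcription. The positions are chr8:46211063-46211312 on the minus strand for Slc25a4, chrX:36795347-36795596 on the plus strand for Slc25a5, chr4:141623835-141624084 on the minus strand for Slc25a34 and chr9:120110132-120110381 on the plus strand for Slc25a38. Capitals mark matches to the motifs searched, on either strand.
Slc25a4: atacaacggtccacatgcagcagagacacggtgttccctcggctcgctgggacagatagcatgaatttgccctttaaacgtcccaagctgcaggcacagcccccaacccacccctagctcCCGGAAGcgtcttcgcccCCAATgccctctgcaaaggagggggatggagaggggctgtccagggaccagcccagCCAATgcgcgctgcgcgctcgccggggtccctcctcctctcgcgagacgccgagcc
Slc25a5: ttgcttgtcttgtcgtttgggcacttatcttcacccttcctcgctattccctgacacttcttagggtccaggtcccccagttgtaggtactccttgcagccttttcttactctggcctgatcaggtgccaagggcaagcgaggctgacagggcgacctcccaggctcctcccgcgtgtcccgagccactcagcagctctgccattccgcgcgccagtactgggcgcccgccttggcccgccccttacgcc
Slc25a34: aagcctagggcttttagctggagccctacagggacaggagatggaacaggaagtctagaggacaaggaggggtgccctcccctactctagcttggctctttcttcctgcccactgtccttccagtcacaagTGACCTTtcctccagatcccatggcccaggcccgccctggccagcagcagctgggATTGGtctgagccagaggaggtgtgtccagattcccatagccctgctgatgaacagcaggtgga
Slc25a38: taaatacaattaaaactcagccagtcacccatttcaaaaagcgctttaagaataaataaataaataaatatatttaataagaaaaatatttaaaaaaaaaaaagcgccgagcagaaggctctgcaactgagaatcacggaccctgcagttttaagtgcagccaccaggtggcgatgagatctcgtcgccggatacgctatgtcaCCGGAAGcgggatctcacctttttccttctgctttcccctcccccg

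The motifs searched were the nuclear receptor site AAGGTCA, the CCAAT box, the TATA box TATAA, the NRF1 core TGCGCA, the ETS site CCGGAAG and the E-box CACGTG. No matches overlapped in the 4 windows. Slc25a4 held the ETS site beginning 130 bases before the start and CCAAT at 112 and 56 bases. Slc25a34 held the nuclear receptor site at 119 bases and CCAAT at 64 bases, both read on the opposite strand, so they appear as TGACCTT and ATTGG. Slc25a38 held the ETS site at 46 bases, and Slc25a5 held none of these letters in its window. RefSeq gave at least 1 window for 36 of the 46 carriers, 46 windows in all. CCAAT stood in 45.7% of carrier windows and in 33.8% of all 32851 windows of that length. CACGTG stood in 17.4% of carrier windows and 6.02% of all, CCGGAAG in 13.0% and 6.91%, and TGCGCA in 8.70% and 6.43%. TATAA stood in 6.52% of carrier windows and 22.8% of all, and AAGGTCA in 2.17% and 4.08%. Windows of the same gene can overlap and count a site more than once, as for CACGTG in Slc25a14 and CCAAT in Slc25a23. By gene, CCAAT stood in a window of 18 of the 36 carriers, CACGTG of 7, CCGGAAG of 6, TGCGCA of 4, TATAA of 3 and AAGGTCA of 1. Shares by gene over all genes were not counted. A match describes letters in a window and not bound protein.

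Cardiomyocyte genes were bright on every array, with a mean log2 signal over 10 markers between 12.28 and 12.38. The medians of the arrays lay between 4.876 and 4.924. Some other cell types differed between ages. All 10 markers of dividing cells were lower at 10 weeks than at 24 hours, 9 of 11 macrophage markers were higher, and of 10 fibroblast markers 4 were higher and 5 lower. Of 10 endothelial markers 3 were higher and 4 lower, of 10 skeletal muscle markers 1 was higher and 1 lower, and of the 10 cardiomyocyte markers 2 were higher and 4 lower. Of 8 general fat markers 2 were higher at 10 weeks than at 24 hours and 0 lower, and of 8 liver markers 1 was higher and 0 lower. Beside these marker counts, 19.5% of all genes were higher at 10 weeks than at 24 hours and 20.6% lower. In bulk tissue, fewer cells of a type and less RNA per cell cannot be told apart. The Y-linked gene Eif2s3y measured 6.28 to 7.70 at 24 hours, 6.06 to 7.60 at 7 days and 2.87 to 3.30 at 10 weeks, while Xist, which marks cells with an inactive X chromosome, measured 8.26 to 9.56 on all 9 arrays. Every 24-hour and 7-day array thus held transcripts of both sexes, as a pool of animals would, while on the 10-week arrays only Xist was high. The balance varied between replicates, with Eif2s3y and Xist at 7.70 and 8.30 on 24-hour replicate 2 and at 6.28 and 9.37 on replicate 3. The sex of the animals and their age cannot be told apart in the comparisons with 10 weeks.

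The 7-day replicates 2 and 3 stand apart. They hold transcripts of brown fat, a heat-producing fat tissue. The brown fat uncoupler Ucp1 had signals of 4.30, 11.23 and 9.27 on the 7-day replicates in order, against 3.92 to 4.27 on the 6 arrays of other ages. Of 8 brown fat markers 3 were higher at 7 days than at 24 hours, and 5 without 7-day replicate 1. Of all genes 5.27% were higher in that comparison, and 4.18% without 7-day replicate 1. The 3 were Cox7a1, Plin5 and Otop1. Cox7a1 (11.24, 11.16 and 11.24) and Plin5 (7.87, 7.79 and 7.94) were alike on the 7-day arrays, so their calls do not mark replicates 2 and 3. Otop1 (4.69, 5.25 and 4.77) and Cidea (7.99, 9.67 and 8.34) were highest on replicate 2. The liver transcript Alb was also high on that replicate, at 3.89, 7.81 and 3.77 on the 7-day replicates and 5.27, 4.16 and 6.04 at 24 hours. A mean of 8 liver markers was 5.49 on 7-day replicate 2 and 4.67 to 4.95 on all other arrays. The part of liver transcripts in the carrier signals was not tested. Without replicates 2 and 3 Cox7a1 was at 0.50 and Plin5 at 0.60, against 0.47 and 0.60 with all arrays. Leaving both out keeps 1 array at 7 days, so comparisons with 7 days are given with all arrays first. Without them the first-week calls that were lost were those of Slc25a3 (-0.16), Slc25a12 (-0.26), Slc25a13 (-0.15), Slc25a23 (-0.41), Slc25a32 (0.35), Slc25a34 (0.36) and Slc25a35 (0.30). Between 10 weeks and 7 days the lost calls were those of Slc25a3 (0.17), Slc25a16 (0.26), Slc25a20 (-0.16), Slc25a23 (-0.15), Slc25a25 (-0.30), Slc25a29 (0.25), Slc25a36 (0.40), Slc25a37 (-0.53) and Slc25a51 (-0.26). All kept their direction, and in that later comparison 9 carriers were then called higher and 3 lower.

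More SLC25 carriers were called between 10 weeks and 7 days, 21 of 46, than between 7 days and 24 hours, 10 of 46. All genes had the same order, with 7165 calls between 10 weeks and 7 days and 2009 between 7 days and 24 hours. Between 10 weeks and 7 days 13 of 46 carriers were higher and 8 lower, against 17.0% of all genes higher and 18.9% lower. Between 7 days and 24 hours 4 carriers were higher and 6 lower, against a background of 5.27% and 4.81%. Between 10 weeks and 24 hours 13 were higher and 10 lower, against 19.5% and 20.6%. As shares of the 46 these are 28.3% and 17.4%, then 8.70% and 13.0%, and 28.3% and 21.7%, in the same order of comparisons. A gene was called where limma's adjusted p over all 19938 genes was under 0.05. When only genes above the median signal were tested, 30 carriers remained. Of these, 11 were higher and 7 lower between 10 weeks and 7 days, against 24.5% and 34.8% of such genes. Between 7 days and 24 hours 4 were higher and 6 lower, against 11.4% and 11.2%. Between 10 weeks and 24 hours 10 were higher and 8 lower, against 26.8% and 37.2%. The comparisons share arrays, so their counts are not independent. The median carrier differed by 0.05 between 10 weeks and 24 hours, and the median gene by 0.038. In the comparison of 7 days with 24 hours the number higher was 2 without 24-hour replicate 1 or 2 and 1 without 7-day replicates 2 and 3 together. Lower calls numbered 2 when 24-hour replicate 2 was left out, 3 without 7-day replicate 1 and 2 without the brown fat arrays.

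**Figure D1:**
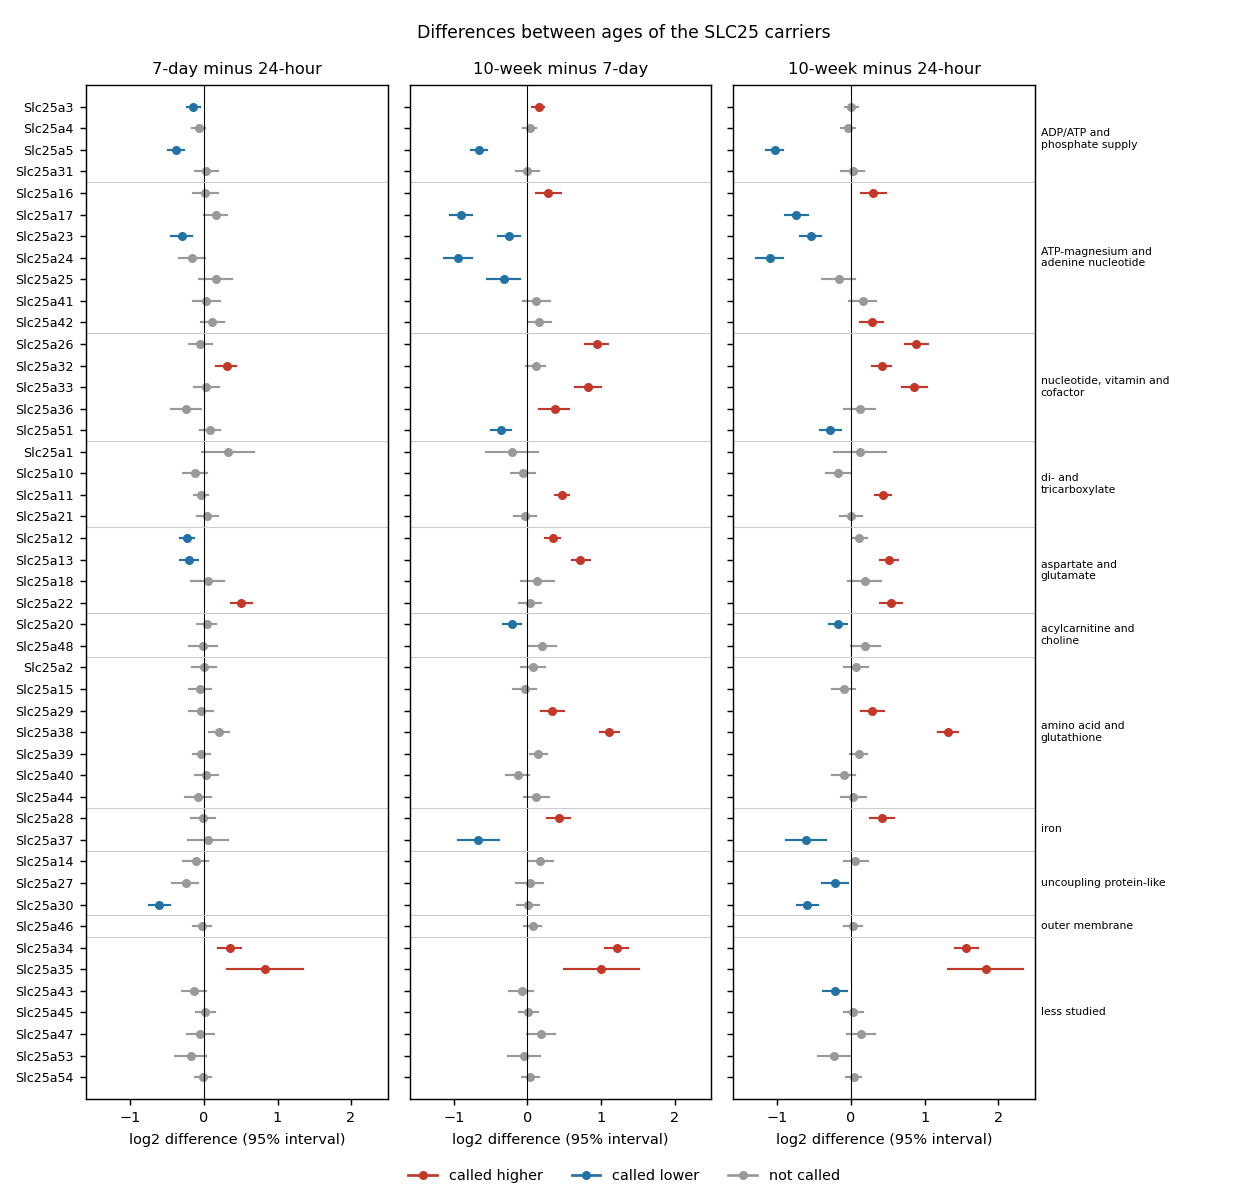
Log2 differences of the 46 SLC25 carriers between ages, grouped by what they carry, with points at the limma estimate and lines for its 95% interval. Red marks carriers called higher at the later age, blue those called lower and grey those not called. Most coloured points lie in the panels that involve 10 weeks, and in that of 10 weeks minus 24 hours Slc25a34, Slc25a35 and Slc25a38 stand farthest to the right and Slc25a5 and Slc25a24 farthest to the left.

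Only 5 carriers differed at least 2-fold in any comparison, and all 5 did so between 10 weeks and 24 hours, where 6.38% of all genes passed that size. Slc25a35, Slc25a34 and Slc25a38 were higher at 10 weeks, and Slc25a24 and Slc25a5 were lower. Between 10 weeks and 7 days Slc25a34 and Slc25a38 passed that size, against 5.05% of genes, and Slc25a35 lay just under it. Between 7 days and 24 hours no carrier did, against 0.627% of genes.

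The ADP/ATP carriers exchange the product of ATP synthase for its substrate, and their 3 genes took different courses. Slc25a4 encodes the form found mainly in heart and skeletal muscle. It measured 12.97, 12.94 and 12.93 at 24 hours, 12.90, 12.83 and 12.89 at 7 days and 12.96, 12.91 and 12.85 at 10 weeks. It was level across ages, at -0.04 between 10 weeks and 24 hours with a 95% interval of -0.13 to 0.05 (adjusted p = 0.464). Only 4 genes had a higher mean, and so near the top of the scale an array can understate a difference.

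Slc25a5 encodes the ADP/ATP carrier known from many dividing cell types. Its log2 signal was 11.92, 11.95 and 11.94 at 24 hours, 11.53, 11.54 and 11.59 at 7 days and 10.83, 11 and 10.85 at 10 weeks, so the ages did not overlap and each later age lay lower. It was 2.06-fold lower at 10 weeks than at 24 hours, with a log2 difference of -1.04 ± 0.05 (SE, adjusted p = 7.67e-08). The step between 7 days and 24 hours was -0.38 (adjusted p = 9.41e-04) and that between 10 weeks and 7 days -0.66 (adjusted p = 2.71e-06). The 3 probe sets of Slc25a5 gave -1.02 to -1.08 between 10 weeks and 24 hours, and near-identical copies of the gene could add to any of them. Beside it, the mean over 10 markers of dividing cells, Mki67 and Top2a among them, was 7.78 to 8.18 at 24 hours, 7.75 to 7.85 at 7 days and 4.47 to 5.04 at 10 weeks. Between 7 days and 24 hours 1 of these 10 markers was lower and 0 higher, against 4.81% and 5.27% of all genes. The part of dividing cells in the Slc25a5 difference was not tested. Slc25a5 is X-linked, as are Slc25a14, Slc25a43 and Slc25a53. Of these 4 carriers 2, Slc25a5 and Slc25a43, were lower at 10 weeks than at 24 hours and 0 higher, where 20.6% of all genes were lower. The Slc25a43 call, at -0.22, was lost under 7 of 20 alternatives.

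Slc25a31, the ADP/ATP carrier known in the mouse from the testis, had a dim signal of 3.37 to 3.63 on the 9 arrays and was called in no comparison. Its signals were 3.43, 3.45 and 3.47 at 24 hours, 3.45, 3.37 and 3.63 at 7 days and 3.45, 3.44 and 3.55 at 10 weeks. Slc25a3, the phosphate carrier that supplies ATP synthase, dipped at 7 days. It measured 11.07, 11.08 and 11.08 at 24 hours, 10.91, 10.91 and 10.96 at 7 days and 11.06, 11.09 and 11.09 at 10 weeks. The 7-day arrays lay below all the others. The difference was -0.15 between 7 days and 24 hours (adjusted p = 0.0386) and 0.15 between 10 weeks and 7 days (adjusted p = 0.0119). The 7-day minus 24-hour call of Slc25a3 was lost when any of the 24-hour arrays was left out, at -0.14 to -0.15, or any of the 7-day arrays, at -0.14 to -0.16. It was also lost with each array centred on its median and without the intensity trend. The 10-week minus 7-day call was lost with each array centred on its median, at 0.12.

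Among 16 subunits and regulators of ATP synthase, the enzyme these carriers serve, 6 were higher at 10 weeks than at 24 hours and 3 lower. Of all genes 19.5% were higher in that comparison and 20.6% lower. Differences were small, with 0.53 for Atp5e (adjusted p = 0.00478), 0.45 for Atp5k, 0.40 for Atp5j and 0.38 for Atp5j2. The median of the 16 was 0.06, against 0.04 for all genes. The pair of ADP/ATP carriers can be set against each other within each array, where the difference includes the unknown brightness of their probes and only its change with age can be read. Slc25a4 minus Slc25a5 was 1.06, 0.99 and 0.99 at 24 hours, 1.37, 1.28 and 1.30 at 7 days and 2.12, 1.91 and 2.0 at 10 weeks. Each later age lay above the earlier one with no overlap, and the mean change between 10 weeks and 24 hours was 1.00. With Slc25a4 level and near the top of the scale, that change is mostly the Slc25a5 difference given above. An exact two-sided permutation test of 3 arrays against 3 cannot go below 0.1, the value it gave here (0.136 adjusted over the 15 such tests of 5 pairs).

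**Figure D2:**
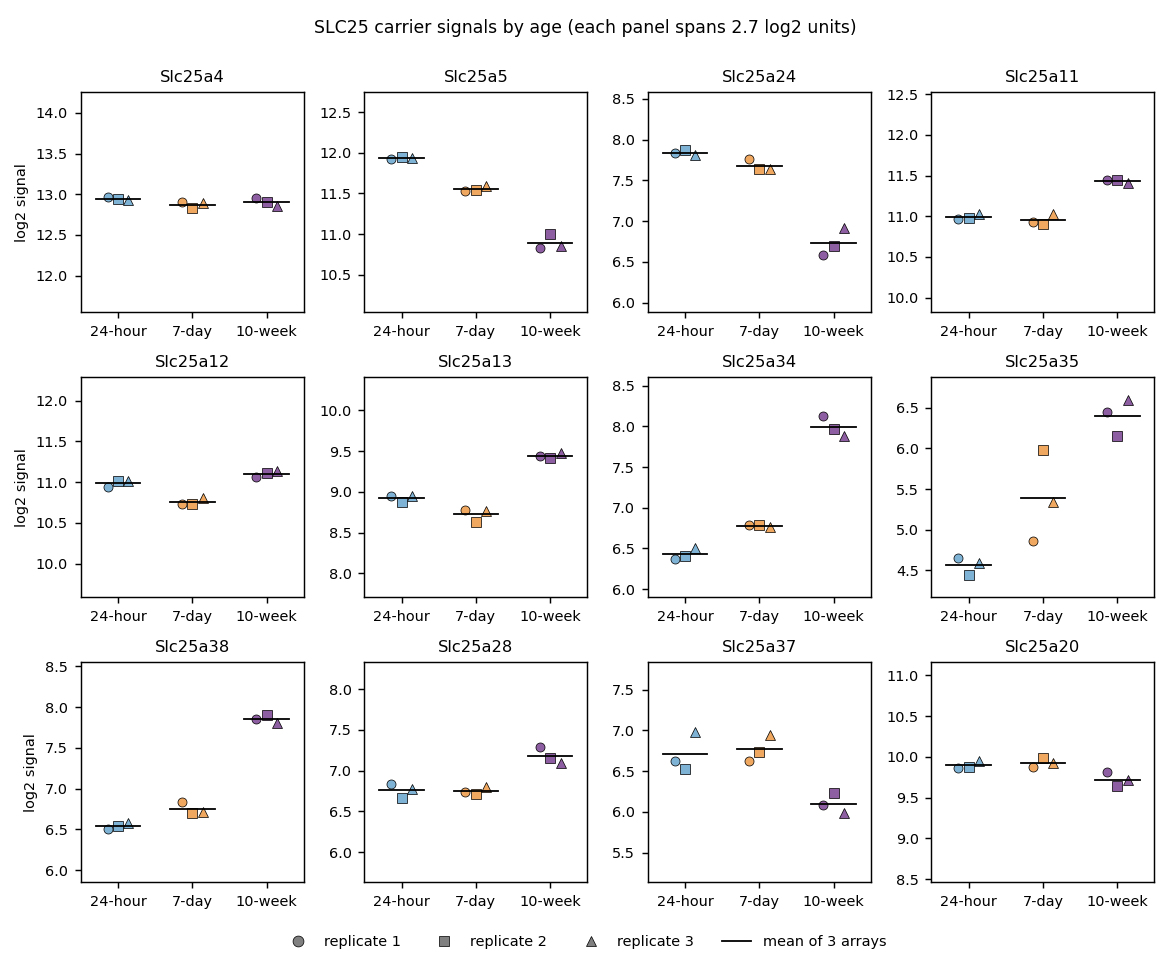
Log2 signal of 12 SLC25 carriers on each array by age, with 1 symbol per replicate and a line at the mean of 3 arrays, each panel spanning the same number of log2 units. Slc25a5 and Slc25a24 step down with age, Slc25a34, Slc25a35 and Slc25a38 step up, Slc25a12 and Slc25a13 are lowest at 7 days, and Slc25a4 stays near 12.9.

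The next carriers handle ATP-magnesium, adenine nucleotides and coenzyme A, and 3 of 7 were lower at 10 weeks than at 24 hours while 2 were higher. Of all genes 20.6% were lower in that comparison and 19.5% higher. Slc25a24, a calcium-regulated carrier that exchanges ATP-magnesium for phosphate, measured 7.84, 7.87 and 7.81 at 24 hours, 7.76, 7.64 and 7.64 at 7 days and 6.59, 6.70 and 6.92 at 10 weeks. The 10-week arrays lay well below the rest. Slc25a24 was 2.15-fold lower at 10 weeks than at 24 hours (-1.10 ± 0.08, SE; adjusted p = 1.92e-06) and 1.92-fold lower than at 7 days (-0.94, adjusted p = 8.13e-06). Its relative Slc25a23, of the same transport type, averaged 8.77 ± 0.09 at 24 hours, 8.47 ± 0.09 at 7 days and 8.22 ± 0.06 at 10 weeks (SD, n = 3). That carrier was 0.55 lower at 10 weeks than at 24 hours on the log2 scale (log2 difference -0.55, adjusted p = 6.71e-05), with steps of -0.30 between 7 days and 24 hours (adjusted p = 0.0167) and -0.25 between 10 weeks and 7 days (adjusted p = 0.0139). The earlier step of Slc25a23 was lost when 24-hour replicate 2 (-0.30) or 3 (-0.26) was left out, or 7-day replicate 1 (-0.25), and the later one without 7-day replicate 2 (-0.22) or 3 (-0.23). Within arrays, Slc25a24 minus Slc25a23 averaged -0.93 at 24 hours, -0.78 at 7 days and -1.48 at 10 weeks, and the 10-week values did not overlap those of either younger age. Slc25a25, the other calcium-regulated carrier of this type, averaged 5.39 at 24 hours, 5.55 at 7 days and 5.23 at 10 weeks. It was lower at 10 weeks than at 7 days (-0.32, adjusted p = 0.0293), and this call did not survive leaving out 7-day replicate 1 (-0.34) or 3 (-0.25) or 10-week replicate 1 (-0.33) or 3 (-0.23), testing every feature, or fitting only the 6 arrays compared. Slc25a41 was called in no comparison.

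Slc25a17, which carries coenzyme A and adenine nucleotides in the peroxisome membrane and not in mitochondria, measured 8.03, 7.97 and 7.97 at 24 hours, 8.07, 8.26 and 8.11 at 7 days and 7.21, 7.17 and 7.35 at 10 weeks. Every 10-week array was below every younger one. The difference was -0.75 between 10 weeks and 24 hours (adjusted p = 9.45e-06) and -0.90 between 10 weeks and 7 days (adjusted p = 3.22e-06). Carriers linked to coenzyme A in mitochondria went the other way. Slc25a42, which imports coenzyme A, measured 6.93, 6.85 and 7.04 at 24 hours, 7.05, 7.11 and 7.02 at 7 days and 7.29, 7.26 and 7.11 at 10 weeks. The difference for Slc25a42 was 0.28 between 10 weeks and 24 hours (adjusted p = 0.00904), and neither single step was called. Slc25a16, also linked to coenzyme A, averaged 7.99 ± 0.04 at 24 hours, 8.01 ± 0.04 at 7 days and 8.30 ± 0.16 at 10 weeks (SD, n = 3). It was higher at 10 weeks than at 24 hours (0.30, adjusted p = 0.00937) and than at 7 days (0.28, adjusted p = 0.0156). The call of Slc25a16 against 7 days was lost without 7-day replicate 2 (0.26) or 10-week replicate 1 (0.26).

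Of the 5 carriers of nucleotides, vitamins and cofactors, 3 were higher at 10 weeks than at 24 hours, 1 was lower and 1 was not called, where 19.5% of all genes were higher and 20.6% lower. Slc25a26, which imports the methyl donor S-adenosylmethionine, measured 6.25, 6.30 and 6.31 at 24 hours, 6.19, 6.17 and 6.35 at 7 days and 7.29, 7.13 and 7.11 at 10 weeks. Slc25a33, a pyrimidine nucleotide carrier, measured 5.02, 5.21 and 5.17 at 24 hours, 5.07, 5.23 and 5.19 at 7 days and 5.89, 6.06 and 6.02 at 10 weeks. Both were flat over the first week and higher on every 10-week array. Slc25a26 was 1.86-fold higher at 10 weeks than at 24 hours (0.89 ± 0.07, SE; adjusted p = 3.61e-06) and Slc25a33 was 1.81-fold higher (0.86 ± 0.08, SE; adjusted p = 7.80e-06). Against 7 days the differences were 0.94 for Slc25a26 and 0.82 for Slc25a33. Slc25a36, the other pyrimidine nucleotide carrier, averaged 8.80 at 24 hours, 8.55 at 7 days and 8.92 at 10 weeks and was called only between 10 weeks and 7 days (0.37, adjusted p = 0.00995). The other probe set of Slc25a36 gave 0.25 for that comparison, which did not pass (adjusted p = 0.242), and the mean of both probe sets gave 0.31, which did not pass either.

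Slc25a32, linked to folate and to the flavin cofactor FAD, was one of the few with a clear change in the first week. It averaged 6.18 ± 0.06 at 24 hours, 6.49 ± 0.04 at 7 days and 6.60 ± 0.04 at 10 weeks (SD, n = 3). Slc25a32 was higher at 7 days than at 24 hours (0.31, adjusted p = 0.00858) and at 10 weeks than at 24 hours (0.42, adjusted p = 2.00e-04). Slc25a51, which brings NAD into mitochondria, averaged 7.68 at 24 hours, 7.77 at 7 days and 7.41 at 10 weeks. Its 10-week difference was -0.28 against 24 hours (adjusted p = 0.00480) and -0.36 against 7 days (adjusted p = 0.00109).

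The malate-aspartate shuttle depends on the oxoglutarate/malate carrier Slc25a11 and the aspartate/glutamate carriers Slc25a12 and Slc25a13. All 3 were higher at 10 weeks than at 7 days, and Slc25a11 and Slc25a13 were also higher than at 24 hours. Slc25a11 measured 10.97, 10.98 and 11.03 at 24 hours, 10.93, 10.90 and 11.03 at 7 days and 11.44, 11.44 and 11.41 at 10 weeks. The difference was 0.43 ± 0.05 between 10 weeks and 24 hours (SE, adjusted p = 2.63e-05) and 0.47 between 10 weeks and 7 days (adjusted p = 1.91e-05).

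Slc25a12 is the aspartate/glutamate carrier best known from muscle and brain. It measured 10.94, 11.01 and 11.01 at 24 hours, 10.73, 10.73 and 10.81 at 7 days and 11.06, 11.11 and 11.14 at 10 weeks. The 7-day arrays lay below all the others. It was lower at 7 days than at 24 hours (-0.23, adjusted p = 0.0107) and higher at 10 weeks than at 7 days (0.34, adjusted p = 1.78e-04), while the 10-week minus 24-hour difference of 0.11 was not called (95% interval 0.01 to 0.22, adjusted p = 0.0706). With quantile normalization that last difference was 0.23 and was called. The 7-day call of Slc25a12 was lost without 24-hour replicate 2, at -0.22.

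Slc25a13, the form best known from liver, measured 8.95, 8.87 and 8.95 at 24 hours, 8.78, 8.63 and 8.76 at 7 days and 9.44, 9.41 and 9.48 at 10 weeks. It showed the same dip and a larger gain, with 0.52 between 10 weeks and 24 hours (1.43-fold, adjusted p = 2.76e-05) and 0.72 between 10 weeks and 7 days (1.65-fold, adjusted p = 3.36e-06). The dip at 7 days was -0.20 (adjusted p = 0.0430) and not called when any 24-hour array was left out (-0.19, -0.23 and -0.19 in replicate order), any 7-day array (-0.23, -0.16 and -0.22) or 10-week replicate 1 (-0.20). It was also lost with each array centred on its median, without the intensity trend, with every feature tested and with only the 6 arrays compared. Within arrays, Slc25a13 minus Slc25a12 averaged -2.06 at 24 hours, -2.04 at 7 days and -1.66 at 10 weeks, and every 10-week value lay above every younger one.

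Enzymes of the malate-aspartate and glycerol phosphate shuttles were called in 3 of 6 cases between 10 weeks and 24 hours, all higher. In that comparison 7989 of 19938 genes were called, 19.5% higher and 20.6% lower. The cytosolic aspartate aminotransferase Got1 differed by 0.35 (adjusted p = 0.00170) and the mitochondrial one, Got2, by 0.14 (adjusted p = 0.0364). The Got2 call was lost without any 1 of the 24-hour arrays, at 0.13 to 0.16, and without 10-week replicate 1 (0.13) or 2 (0.12). Between 7 days and 24 hours Got1 was at -0.32 and Got2 at -0.25, both lower at 7 days, while Gpd1, the glycerol-3-phosphate dehydrogenase of the other shuttle, was higher at 2.04 (adjusted p = 0.0149). Gpd1 measured 6.34, 6.20 and 6.70 at 24 hours, 7.47, 9.74 and 8.17 at 7 days and 8.07, 8.18 and 7.86 at 10 weeks, so 7-day replicates 2 and 3, the brown fat arrays, were the highest of their age. The 7-day call of Gpd1 was lost without 24-hour replicate 1 (2.01) or 2 (1.94), with a robust variance prior and with only the 6 arrays compared. The Got1 call was lost there without 24-hour replicate 1 (-0.32) or 2 (-0.32). Gpd1 differed by 1.62 between 10 weeks and 24 hours (adjusted p = 0.0129).

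Of the glutamate carriers Slc25a22 and Slc25a18, the first was called. Slc25a22 measured 5.35, 5.21 and 5.27 at 24 hours, 5.76, 5.84 and 5.76 at 7 days and 5.89, 5.79 and 5.79 at 10 weeks. The change lay in the first week, with 0.51 between 7 days and 24 hours (adjusted p = 7.68e-04), and the 10-week minus 24-hour difference was 0.55 (adjusted p = 5.48e-05). Slc25a18 averaged 4.38 at 24 hours, 4.43 at 7 days and 4.57 at 10 weeks and was not called. Of the other carriers of di- and tricarboxylic acids, the citrate carrier Slc25a1, the dicarboxylate carrier Slc25a10 and the oxodicarboxylate carrier Slc25a21 were called in no comparison. Slc25a1 measured 7.11, 7.03 and 7.02 at 24 hours, 7.16, 7.69 and 7.29 at 7 days and 7.17, 7.48 and 6.87 at 10 weeks, so the arrays within each later age spread more than at 24 hours.

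**Figure D3:**
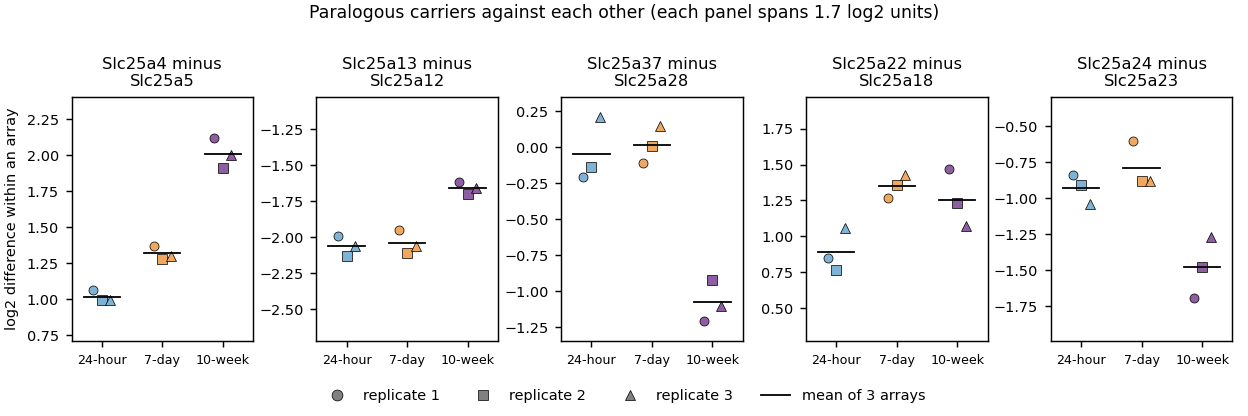
Log2 signal of 1 carrier minus that of its relative on the same array, by age, with 1 symbol per replicate and a line at the mean of 3 arrays; panels span the same number of log2 units. Slc25a4 minus Slc25a5 steps up at each age, Slc25a37 minus Slc25a28 is near 0 at both younger ages and near -1.08 at 10 weeks, and Slc25a22 minus Slc25a18 is higher at both later ages than at 24 hours.

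Slc25a20, the carnitine-acylcarnitine carrier of fatty acid import, changed little. It measured 9.86, 9.88 and 9.95 at 24 hours, 9.88, 9.98 and 9.93 at 7 days and 9.81, 9.64 and 9.71 at 10 weeks. The 10-week arrays were the dimmest, with -0.18 against 24 hours (adjusted p = 0.0266) and -0.21 against 7 days (adjusted p = 0.0118). The call of Slc25a20 against 24 hours was lost without 24-hour replicate 2 (-0.18) or 3 (-0.15) or 10-week replicate 2 (-0.14) or 3 (-0.17). Among 5 other genes of carnitine uptake and acyl transfer, 3 were higher at 10 weeks than at 24 hours and 1 lower. Of all genes 19.5% were higher and 20.6% lower. Cpt1b and Acsl1, also on that list, were not among the genes tested. Cpt1a, the carnitine palmitoyltransferase best known from liver, was lower at 10 weeks, with a log2 difference of -1.65 (adjusted p = 2.41e-08), while the carnitine transporter Slc22a4 was at 0.66, the inner membrane enzyme Cpt2 at 0.43 (adjusted p = 0.00214) and the carnitine acetyltransferase Crat at 0.18. Crat was not called without 24-hour replicate 1 (0.15) or 2 (0.17) or 10-week replicate 1 (0.14) or 3 (0.16). Slc25a48, linked to choline import, was not called.

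Slc25a38 had the clearest change among carriers of amino acids and glutathione. It imports glycine for the first step of heme synthesis. Its log2 signal was 6.50, 6.54 and 6.58 at 24 hours, 6.83, 6.70 and 6.71 at 7 days and 7.86, 7.90 and 7.81 at 10 weeks. The ages overlapped nowhere, and the 10-week arrays stood far above the younger ones. Slc25a38 was 2.49-fold higher at 10 weeks than at 24 hours (1.32 ± 0.06, SE; adjusted p = 5.84e-08) and 2.16-fold higher than at 7 days (1.11, adjusted p = 2.98e-07). The first-week difference of 0.20 was not called (adjusted p = 0.0596), though it was without 10-week replicate 3 or with the dimmest genes left out of the test. Slc25a29, a carrier of basic amino acids, averaged 4.48 at 24 hours, 4.43 at 7 days and 4.77 at 10 weeks and was higher at 10 weeks than at both younger ages, by 0.29 against 24 hours (adjusted p = 0.00744) and 0.33 against 7 days (adjusted p = 0.00379). The ornithine carriers Slc25a2 and Slc25a15, the glutathione carriers Slc25a39 and Slc25a40 and the branched-chain amino acid carrier Slc25a44 were called in no comparison.

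The mitoferrins, which bring iron into mitochondria for iron-sulphur clusters and heme, went in opposite directions. Slc25a37, the mitoferrin of red cell precursors, measured 6.63, 6.53 and 6.98 at 24 hours, 6.63, 6.73 and 6.94 at 7 days and 6.08, 6.23 and 5.99 at 10 weeks. Slc25a28, the mitoferrin of other tissues, measured 6.84, 6.67 and 6.78 at 24 hours, 6.74, 6.72 and 6.80 at 7 days and 7.29, 7.15 and 7.09 at 10 weeks. For both genes the younger ages overlapped and the 10-week arrays stood apart. Slc25a37 differed by -0.61 between 10 weeks and 24 hours (1.53-fold lower, adjusted p = 0.00229) and -0.67 between 10 weeks and 7 days (adjusted p = 0.00154). Slc25a28 differed by 0.42 between 10 weeks and 24 hours (1.34-fold higher, adjusted p = 7.93e-04) and 0.43 between 10 weeks and 7 days (adjusted p = 8.21e-04). Slc25a37 minus Slc25a28 within an array was -0.21 to 0.21 at 24 hours, -0.11 to 0.15 at 7 days and -1.21 to -0.92 at 10 weeks.

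Some red cell genes were lower at 10 weeks, as Slc25a37 was. Of 16 erythroid markers 9 were tested, without the main hemoglobin genes. Of these 9, 3 were lower at 10 weeks than at 24 hours, 0 higher and 6 not called, with a median of -0.04, against 20.6% of all genes lower. The mean of the 9 was 4.98 to 5.14 at 24 hours, 5.08 to 5.15 at 7 days and 4.50 to 4.80 at 10 weeks. Alas2, the red cell enzyme that joins glycine to succinyl-CoA, measured 8.10, 7.51 and 8.39 at 24 hours, 8.54, 8.64 and 9.07 at 7 days and 4.56, 7.12 and 4.25 at 10 weeks. The 10-week array with the most Alas2, replicate 2, also had the highest Slc25a37 of its age, and the part of red cells in the Slc25a37 difference was not tested. Of 14 genes of iron-sulphur cluster and heme synthesis 9 were higher at 10 weeks than at 24 hours and 3 lower. Of all genes 19.5% were higher in that comparison and 20.6% lower. Alas2 fell by 2.69 on the log2 scale (adjusted p = 0.00453) and the transferrin receptor Tfrc by 1.83 (adjusted p = 9.87e-08), while the heme enzyme Cpox was at 0.77 and the cysteine desulfurase Nfs1, which supplies sulphur to the clusters, at 0.77.

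Of the uncoupling protein-like carriers, Slc25a30 was the one with a clear change. It measured 6.99, 7.05 and 6.94 at 24 hours, 6.40, 6.36 and 6.40 at 7 days and 6.30, 6.38 and 6.51 at 10 weeks. The drop lay in the first week, at -0.61 (1.52-fold, adjusted p = 3.37e-04), and the 10-week minus 24-hour difference was -0.60 (adjusted p = 3.79e-05). Slc25a27 averaged 5.72 at 24 hours, 5.47 at 7 days and 5.50 at 10 weeks. Its difference of -0.22 between 10 weeks and 24 hours only just passed (adjusted p = 0.0480), and was lost without any 1 of the arrays except 24-hour replicate 3. Those values were -0.19 and -0.17 without 24-hour replicates 1 and 2, -0.22 without each 7-day array and -0.20, -0.24 and -0.23 without 10-week replicates 1, 2 and 3. Quantile normalization (-0.19), testing every feature and fitting only the 6 arrays compared ended that call too. Slc25a14 was not called. Of 4 tested relatives that bear other names, Mtch1, a carrier homologue of the outer membrane, was 0.31 lower on the log2 scale at 10 weeks than at 24 hours (log2 difference -0.31, adjusted p = 0.00251), and Ucp1, Ucp3 and Mtch2 were not called in that comparison. Between 10 weeks and 7 days Ucp3 (-0.64, adjusted p = 0.0107) and Ucp1 (-4.18, adjusted p = 0.0283) were lower, and without 7-day replicates 2 and 3 neither was called, at -0.56 for Ucp3 and -0.22 for Ucp1. The Ucp1 call was also lost without 7-day replicate 2 (-2.70) or 3 (-3.68) alone or any 10-week array (-4.09 to -4.25). Mtch1 was lower at 10 weeks than at 7 days too, at -0.54 (adjusted p = 6.94e-05). Slc25a46, an outer membrane protein of the family, was called in no comparison.

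Slc25a34 and Slc25a35 are close relatives whose transported substances are little studied, and both were higher at each later age. Slc25a34 measured 6.37, 6.41 and 6.51 at 24 hours, 6.79, 6.79 and 6.76 at 7 days and 8.13, 7.97 and 7.88 at 10 weeks. The ages did not overlap. It was 2.96-fold higher at 10 weeks than at 24 hours (1.56 ± 0.07, SE; adjusted p = 6.21e-08), with 0.35 between 7 days and 24 hours (adjusted p = 0.0116) and 1.21 between 10 weeks and 7 days (adjusted p = 5.51e-07). The first-week call of Slc25a34 was lost without 24-hour replicate 1 (0.32) or 2 (0.34).

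Slc25a35 measured 4.65, 4.45 and 4.59 at 24 hours, 4.86, 5.98 and 5.34 at 7 days and 6.44, 6.15 and 6.59 at 10 weeks. The ages did not overlap, but the 7-day arrays spread over more than 1 log2 unit. It was 3.56-fold higher at 10 weeks than at 24 hours (1.83 ± 0.23, SE; adjusted p = 8.67e-05), with 0.83 between 7 days and 24 hours (adjusted p = 0.0461) and 1.00 between 10 weeks and 7 days (adjusted p = 0.00579). The first-week call of Slc25a35 was lost without any 1 array other than 7-day replicate 1. The values were 0.87, 0.78 and 0.84 without 24-hour replicates 1, 2 and 3, 0.54 and 0.86 without 7-day replicates 2 and 3, and 0.83 without each 10-week array. It was also lost with every feature tested and with only the 6 arrays compared.

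The 7-day arrays with the most Slc25a35 were also those with brown fat transcripts. Ucp1 was highest on 7-day replicate 2 and next on replicate 3, and Slc25a35 and Slc25a1 had that same order among the 7-day arrays. Slc25a14, Slc25a17, Slc25a20, Slc25a23 and Slc25a33 had it too, over smaller spreads, so the order alone does not set Slc25a35 and Slc25a1 apart. The mean of 8 brown fat markers was 6.17 to 6.23 at 24 hours, 6.43, 7.75 and 7.13 on the 7-day replicates and 6.50 to 6.57 at 10 weeks. Of these 8 markers 2 were higher at 10 weeks than at 24 hours and 0 lower, against 19.5% and 20.6% of all genes. The mean of the 8 general fat markers was 6.02 to 6.05 at 24 hours, 6.06, 7.78 and 6.64 at 7 days (replicates in order) and 6.64, 6.75 and 6.32 at 10 weeks. The means of both fat lists were thus higher on every 10-week array than on any 24-hour array, as Slc25a35, Slc25a34 and Slc25a38 were. Among the 10-week arrays the general fat mean was highest on replicate 2 and lowest on replicate 3. Slc25a35 was lowest there on replicate 2 (6.15) and highest on replicate 3 (6.59). Of the brown fat markers, Cox7a1 measured 10.61 to 10.91 at 24 hours and 12.07 to 12.37 at 10 weeks. Plin5 measured 7.15 to 7.42 and 8.13 to 8.41, while Ucp1, Cidea, Otop1, Prdm16 and Dio2 overlapped between these ages. The dim Elovl3 measured 2.99 to 3.07 and 3.07 to 3.18. Of the general fat markers, Lpl measured 11.01 to 11.13 and 11.94 to 12.13. Retn measured 3.94 to 4.09 and 4.43 to 6.53, and Adipoq 3.75 to 3.78 and 3.95 to 5.04, while Fabp4, Cidec and Pck1 overlapped. Plin1 measured 4.70 to 4.97 and 5.01 to 5.08, and Lep 4.20 to 4.24 and 4.24 to 4.38. The part of fat in the Slc25a35 values at 7 days and at 10 weeks was not tested. Without 7-day replicates 2 and 3 the first-week difference of Slc25a35 was 0.30 and not called, and that between 10 weeks and 7 days was 1.54 and called. The difference between 10 weeks and 24 hours uses neither array and stayed at 1.83. Slc25a1 differed by 0.33 between 7 days and 24 hours and was not called, and by 0.11 without those 2 arrays.

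**Figure D4:**
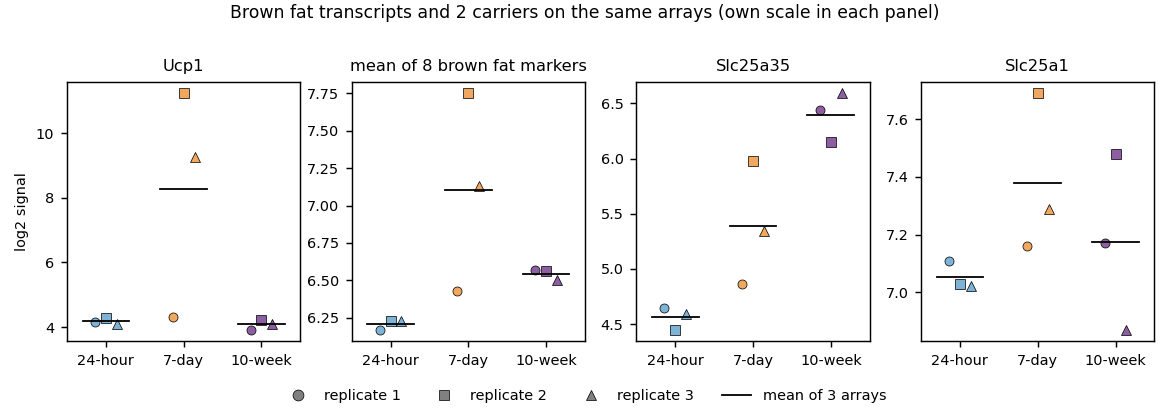
Log2 signal of Ucp1, the mean of 8 brown fat markers, Slc25a35 and Slc25a1 on each array by age, each panel on a scale of its own, with 1 symbol per replicate and a line at the mean. On the 7-day arrays replicate 2 is highest, replicate 3 next and replicate 1 lowest in all 4 panels. At 10 weeks Ucp1 is at 3.92 to 4.23, and the brown fat mean and Slc25a35 lie above all their 24-hour values.

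Of the remaining little-studied carriers, Slc25a43 averaged 5.47 at 24 hours, 5.34 at 7 days and 5.26 at 10 weeks. Its difference between 10 weeks and 24 hours was -0.22 (adjusted p = 0.0372), and this call was lost when 24-hour replicate 1 (-0.20) or 2 (-0.20) was left out, or 7-day replicate 3 (-0.22), or 10-week replicate 3 (-0.16). Testing every feature or only the 6 arrays compared ended the Slc25a43 call too. Slc25a45, Slc25a47, Slc25a53 and Slc25a54 were not called.

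In all, 27 carriers were called in at least 1 comparison and 19 in none. The same share over all genes was not counted, so the 27 are not read as particular to carriers. Between 10 weeks and 24 hours alone 7989 of 19938 genes were called. The 19 were Slc25a1, Slc25a2, Slc25a4, Slc25a10, Slc25a14, Slc25a15, Slc25a18, Slc25a21, Slc25a31, Slc25a39, Slc25a40, Slc25a41, Slc25a44, Slc25a45, Slc25a46, Slc25a47, Slc25a48, Slc25a53 and Slc25a54. Their largest difference in any comparison was 0.33. Of these 19, 10 had a mean signal under the median of all genes, 5.57, where an array can understate a difference, and so did 6 of the 27 that were called. Among the brighter ones, Slc25a4 spanned 12.83 to 12.97 over the 9 arrays, Slc25a46 9.30 to 9.51, Slc25a39 8.73 to 8.94, Slc25a10 6.75 to 7.11 and Slc25a44 6.63 to 6.98. The dimmest was Slc25a54, at 3.02 to 3.13.

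**Figure D5:**
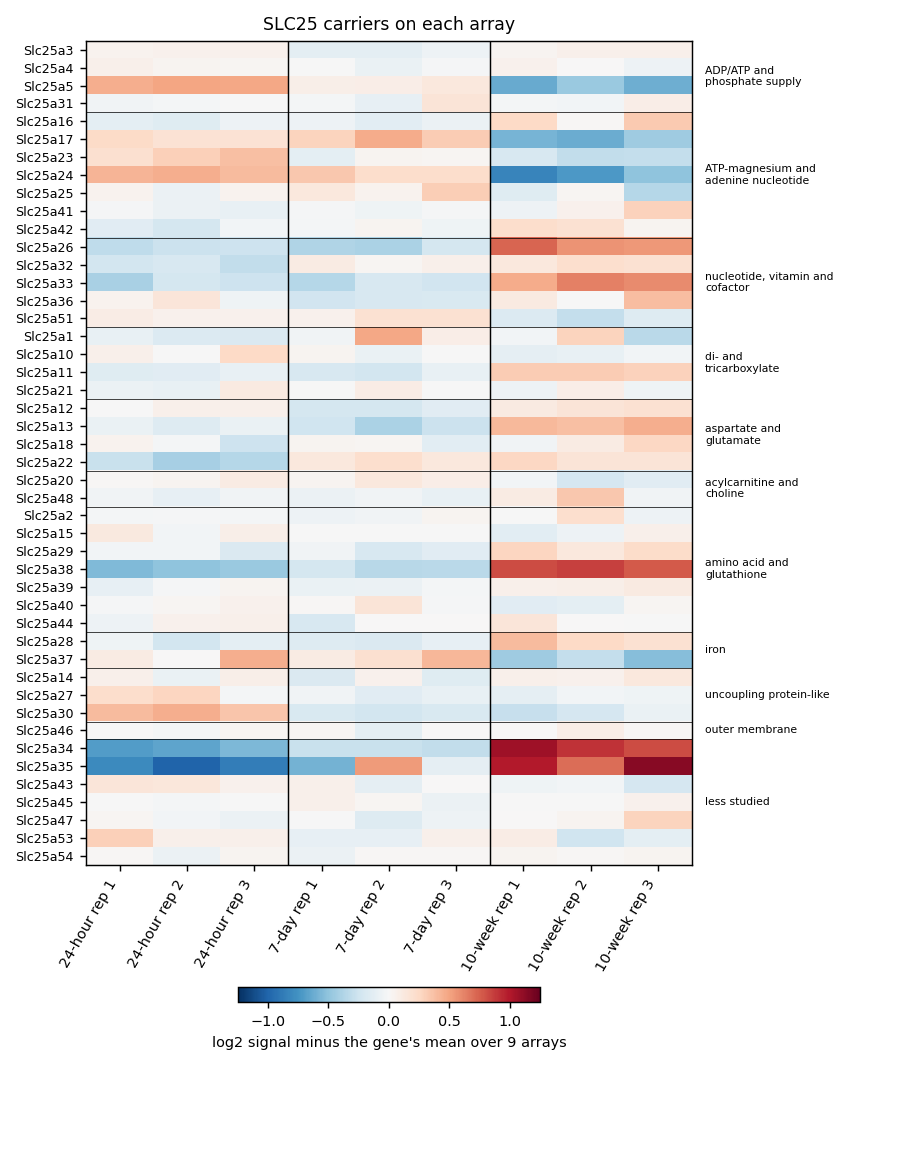
Log2 signal of each of the 46 SLC25 carriers on each of the 9 arrays, minus that gene's mean over the arrays, with rows grouped by what the carrier moves and columns by age. The 3 columns at 10 weeks stand out, red for Slc25a34, Slc25a35, Slc25a38, Slc25a26 and Slc25a33 and blue for Slc25a5, Slc25a24 and Slc25a17, and rows near white were called in no comparison or changed little.

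SLC25 proteins are inserted into the inner membrane by import receptors, small Tim chaperones and the TIM22 complex. Of 15 genes of this route 5 were higher at 10 weeks than at 24 hours and 2 lower, with a median of 0.00 against 0.04 for all genes. Of all genes 19.5% were higher in that comparison and 20.6% lower. The pore subunit Tomm5 differed by 0.97 (adjusted p = 3.06e-04), the chaperones Timm10 by 0.47 and Timm8b by 0.44, and the TIM22 component Agk by -0.45 (adjusted p = 0.00282). Without 24-hour replicate 1, 4 of the 15 were lower. Of 16 other genes that move metabolites or ions across mitochondrial membranes 7 were higher and 3 lower, against those same shares of all genes. They were led by the pyruvate carrier subunit Mpc1 at 1.28 (adjusted p = 5.56e-06), followed by Sfxn4 at 0.74, the sodium/calcium exchanger Slc8b1 at 0.71 and the sideroflexin Sfxn3 at -0.45.

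Of 12 transcription factors and coactivators of mitochondrial genes, 7 were higher at 10 weeks than at 24 hours and 3 lower. Of all genes 19.5% were higher in that comparison and 20.6% lower. The nuclear receptors Esrrb at 1.11 (adjusted p = 1.43e-05), Ppara at 0.93 (adjusted p = 5.65e-06) and Pparg at 0.65 (adjusted p = 0.00893) were higher, and the coactivator Ppargc1b was lower at -0.60 (adjusted p = 2.34e-04). Of the regulators list 4 were higher without 24-hour replicate 1.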

How the data were processed

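Each of the 9 arrays gave 1 log2 value for each of 35556 features in the authors' deposited table. The submitters' processing notes name MAS5 5.0; how probes were summarised and arrays normalized is not given in the sources used here. Values ran from 1.853 to 13.583, above 11.09, the natural log of the largest 16-bit scanner value, so the deposited values were taken as log2. They were used as deposited, since array medians lay within 0.048 of each other. Close medians do not show that the bright signals of the arrays share a scale. Pearson's r within an age ran from 0.991 to 0.996 over features. The table holds no detection flags. Arrays carry no read depth, and differences between dim signals may be understated.

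Probe sets were named through the platform's annotation, with symbols updated by Entrez ID for 21698 of 21789 probe sets with 1 symbol; 1621 had several symbols and 12146 none listed, and neither was named. For 999 genes with several probe sets the one with the highest mean was kept, which left 19938 genes. A model with 1 mean per age was fitted with limma 3.58.1 in R 4.3.3 (eBayes with an intensity trend), and p-values were adjusted by Benjamini-Hochberg over all genes of each of 3 comparisons. Further steps used scipy 1.17.1, pandas 2.3.3, numpy 2.4.6 and matplotlib 3.10.9 under Python 3.11.15. The fit was tested on simulated data with known changes.

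Every carrier is named. Values of each array are given for carriers called with an absolute log2 difference of at least 1, for a set of heart and transport genes, and for some others chosen after their values were seen (Slc25a1, Slc25a17, Slc25a22, Slc25a26, Slc25a30, Slc25a33). From each pathway list up to 4 called members with the largest absolute difference between 10 weeks and 24 hours are named. The carriers, lists, motifs and tests were chosen with earlier results of these data known. Replicate numbers are shared between ages, but deviations of same-numbered arrays correlated at -0.174 to 0.133 over genes, so the numbers were not taken to pair arrays. Alternatives were other normalizations, filters, feature sets, variance models and a replicate block, and leaving out arrays.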

Additional observations from a re-analysis of the deposited data

How the results depend on the processing

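Of the SLC25 calls, 3 of 10 between 7 days and 24 hours, 12 of 21 between 10 weeks and 7 days and 20 of 23 between 10 weeks and 24 hours held under every alternative run. Of 2838 carrier values under alternatives, 90 lost a call, 23 gained one and 0 reversed a called direction; 66 of 1691 values uncalled under both settings changed sign. Leaving out 1 array gave 2 to 4 SLC25 carriers higher and 2 to 7 lower between 7 days and 24 hours, and 6 to 8 lower between 10 weeks and 7 days. Without 7-day replicates 2 and 3 together, which leaves 1 array at 7 days assumed to vary like the others, these SLC25 counts were 1 higher, 2 lower and 3 lower; fewer arrays were compared, and no other cause was tested. With quantile normalization 17 carriers were higher and 8 lower between 10 weeks and 7 days, against 18.5% and 16.6% of all genes. Between 10 weeks and 24 hours 15 were then higher and 10 lower, against 20.3% and 18.2%, and between 7 days and 24 hours 4 and 6. With a replicate block the counts higher and lower were 3 and 5 between 7 days and 24 hours. They were 13 and 7 between 10 weeks and 7 days and 13 and 9 between 10 weeks and 24 hours, and the block ended 4 calls. Those were the calls of Slc25a3 and Slc25a35 between 7 days and 24 hours, Slc25a25 between 10 weeks and 7 days and Slc25a27 between 10 weeks and 24 hours. The exact permutation test of the within-array differences cannot go below 0.1 with 3 arrays per age. Signal above background could not be judged without detection flags, and dim carriers give the least certain differences.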
